A study of Homo sapiens with 4 samples.

Results

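The nucleoporins, which build the nuclear pore complex, and the importins, exportins and Ran regulators that carry cargo through it were examined in DU145 cells with and without depletion of DCUN1D1. A probe set, the group of short probes that reads 1 transcript, was a member when the platform annotation named exactly 1 gene for it and that gene was a NUP, KPNA, KPNB, IPO, TNPO or XPO gene followed by its number (or XPOT), or was CSE1L, RAN, RANBP1, RANBP2, RANGAP1, RCC1, TPR, RAE1 or AAAS. This gave 160 of the 40914 probe sets that name 1 gene, and 57 of the 19774 genes. Of the 57, 55 encode proteins, NUP133-DT is a divergent transcript of NUP133 and NUP210P1 is a pseudogene.

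DU145 is an established human prostate cancer cell line. RNA was hybridised to 4 Affymetrix arrays, 2 from cells carrying an shRNA against GFP, which the cells do not make (the control, DU145-GFP), and 2 from cells carrying an shRNA against DCUN1D1, a factor that helps attach NEDD8 to cullins (DU145-DCUN1D1-KD). The comparison asks what the loss of DCUN1D1 does to the transcripts of a prostate cancer cell. Both groups were transduced by lentivirus and cultured in DMEM, to which the growth protocol adds 10% fetal bovine serum, penicillin and streptomycin. The records give 16 h of culture, whereas the methods give a longer time from infection to RNA collection, and the sources do not relate them. From each culture 1 µg of total RNA was labelled with biotin. The records also name DMSO without saying which cells received it, and they do not say which of the shRNAs in the methods each knockdown array carried. The replicates are described as biological duplicates, so each p-value rests on only 2 arrays per group. The p-values from the limma software, and the standard errors given after ±, also draw on the spread of other probe sets of similar brightness. They are therefore not the replicate spread of 1 probe set alone. All values are the deposited log2 signals. In RNA from a whole culture, fewer cells making a transcript and less of it per cell cannot be told apart.

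Proteins enter the nucleus bound to importins of the karyopherin beta family, either directly or through an importin alpha adaptor that recognises the nuclear localisation signal, and leave it bound to exportins. The GTPase Ran gives these journeys their direction: RCC1 loads it with GTP in the nucleus, where Ran-GTP releases import cargo and assembles export complexes, and RANGAP1 with RANBP1 or RANBP2 ends the cycle in the cytoplasm. The pore itself is built from a Y-shaped scaffold, an inner ring, a central channel of FG-repeat nucleoporins, a cytoplasmic face and a nuclear basket. The machinery is used by every nucleated cell and is in high demand in dividing ones.

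Most of these probe sets were dim. The array's nonspecific control with 20 G or C bases (the GC20 control) read 2.97 and 3.30 in the control arrays (replicate 1, then 2, here and throughout) and 2.48 and 2.51 in the knockdown arrays, and 20 of 23 such controls were lower in both knockdown arrays, by a median log2 difference of -0.29. The GC20 control was exceeded by 25, 12, 66 and 45 of the 160 probe sets in these arrays, by 11 in all 4 (6.88%, against 4.39% of all probe sets) and by 88 in none. Knockdown replicate 1 stood apart: its 99th percentile was 7.33 against 5.58 to 6.18 in the others, and the probe set for the 3' end of GAPDH read 10.82 there and 4.68 to 5.09 elsewhere. DCUN1D1 itself read 2.55 and 1.99 in the control arrays and 1.60 and 1.45 in the knockdown arrays at its brightest probe set. These values lay below the GC20 control in every array, and the log2 difference of -0.75 ± 0.26 (SE) did not pass the fold bound used here. Its other probe sets gave -0.47 to 0.12, none past the bound. The paper reports reduced DCUN1D1 mRNA and protein in DU145 by real-time PCR and Western blot. Of the epithelial markers KRT8 exceeded the GC20 control in all 4 arrays, KRT18 only in knockdown replicate 1, and KRT19, EPCAM and CDH1 in none. No leukocyte or endothelial marker measured exceeded it (PTPRC, CD3E, PECAM1, VWF and CDH5), nor did the fibroblast markers COL3A1 and DCN, while COL1A1 did in all 4. The probe sets read for KRT8, KRT18, COL1A1, COL3A1 and DCN are all of the kind that can cross-hybridise.

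Transport genes were more often higher than lower in the knockdown arrays. Following the rule in the study's methods, though not its software, a difference counted as past the fold bound if the lower end of the 90% interval around the fold change was over 1.2, with the standard error taken from limma. The bound does not control false calls: with no difference between the groups, about as many of all probe sets would pass it, so a call past it describes these arrays and is not a significant difference. Of the 160 probe sets, 9 (5.62%) were higher past the bound and 4 (2.5%) lower, against a background of 1.18% and 2.38% of all probe sets. With each gene read at its brightest probe set, 6 of 57 genes (10.5%) were higher past the bound, against 1.57% of all genes. These were the importins KPNA6 and IPO4, the exportin CSE1L, and the nucleoporins NUP155, NUP205 and TPR. The 3 lower genes (5.26%, background 3.64%) were TNPO2, RANGAP1 and NUP62CL.

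None of the 160 passed limma's test with Benjamini-Hochberg adjustment over all probe sets, where the lowest adjusted p was 0.625 and no probe set of any gene passed. At an unadjusted limma p under 0.05, 10 were higher and 4 lower (background 2.3% and 5.25%), and the methods' t-test at the same level gave 6 and 6 (1.94% and 5.22%) and none after Benjamini-Hochberg adjustment (0.00244% of all probe sets, 1 in number). A plain fold of 1.5 was passed by 43 higher and 7 lower probe sets (10.1% and 5.6%), and by 20 and 5 genes (13% and 8.28%). An exact two-sided permutation test of 2 arrays against 2 cannot give a p below 0.333. In all 13 called probe sets the dimmer group lay under the GC20 control in both of its arrays. Seen from the brighter group, 7 of the 13 exceeded that control in both arrays, 2 in 1 array and 4 in neither. A fold against the control is given below only for the 7. It sets the brighter group's mean against the mean GC20 control of the dimmer group's arrays. It is a minimum for the group means only and leaves out the spread within each group. Among the 11 probe sets above the GC20 control in every array, none was higher or lower past the bound (background 1.11% and 5.84%).

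The direction was shared by many members that did not pass any test. The log2 difference was positive for 114 of 160 probe sets (71.2%, against 48.3% of all) with a median of 0.21 (all probe sets -0.01), and for 43 of 57 genes (75.4% against 48.5%) with a median of 0.42. Both knockdown arrays lay above both control arrays for 56 probe sets (35% against 17.9%) and below them for 23 (14.4% against 25%). Without knockdown replicate 1 the positive share was 61.2% against 50.7%, and the median was 0.09. The number of higher calls depended on the arrays kept. It was 13 without knockdown replicate 1 (background 2.94%) and 42 without knockdown replicate 2 (9.8%), where 28 of the 160 and 2602 of all probe sets also passed limma's adjusted p. It was 7 without control replicate 1 (0.912%), where the calls of CSE1L, IPO4, KPNB1 and NUP205 were lost, and 1, that of IPO4, without control replicate 2 (0.115%).

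**Figure D1:**
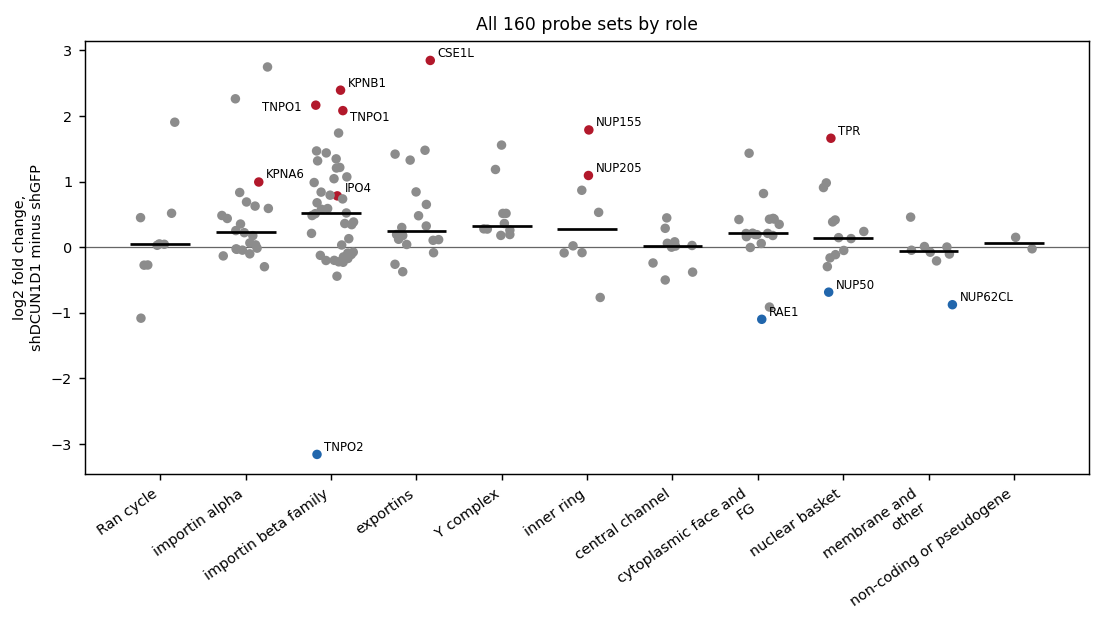
Log2 difference, knockdown minus control, of each of the 160 probe sets (points), grouped by the role of the gene. Red points are higher and blue points lower past the fold bound, and black lines mark each role's median, which runs from -0.06 for the membrane and other nucleoporins to 0.52 for the importin beta family.

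The Ran cycle showed no common direction. RAN, the GTPase itself, was the brightest of the 160 probe sets, with 9.24 and 9.16 in the control arrays and 9.62 and 9.67 in the knockdown arrays. The knockdown arrays were both higher, by 0.45 ± 0.26, short of the bound and -0.13 after quantile normalization. RANGAP1, which switches Ran off in the cytoplasm, read 3.50 and 4.13 in the control arrays and 2.72 and 2.75 in the knockdown arrays. The groups did not overlap, and all 4 arrays exceeded the GC20 control. The difference was -1.08 ± 0.43, with a lower limit of 1.17-fold among all probe sets, just short of the bound, and 1.22-fold among genes, just past it, and the call among genes was lost without control replicate 2 or without either knockdown array. The difference was seen at 1 of the gene's 3 probe sets, the other two giving 0.03 and 0.05. The GC20 control differed by -0.64 on the same scale, and its part in this difference was not tested.

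RCC1, the exchange factor that loads Ran with GTP, differed by -0.27 at its brightest probe set and 0.52 at the other, neither past the bound. RANBP1, which helps take Ran-GTP off transport receptors, likewise gave -0.27 at its brightest probe set. A second RANBP1 probe set read 1.48 and 1.44 in the control arrays and 4.90 and 1.84 in the knockdown arrays, so that almost all of its difference of 1.91 came from a single array. No gene of the cycle was higher past the bound.

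Among the importin alpha adaptors, KPNA6 was higher and KPNA2 differed mainly in 1 array. KPNA6 read 1.53 and 1.36 in the control arrays and 2.60 and 2.28 in the knockdown arrays. Both knockdown arrays were higher and close to each other, and only the first exceeded the GC20 control. The difference was 0.99 ± 0.22, past the bound, while the other probe sets of KPNA6 gave -0.13, 0.04 and 0.83. The last of these was 0.21 without knockdown replicate 1. KPNA2, the adaptor most tied to proliferating cells, read 1.77 and 2.04 in the control arrays and 6.77 and 2.53 in the knockdown arrays. Only the first knockdown array was high by more than 1 log2 unit. Its difference of 2.75 ± 1.39 did not pass the bound and was 0.63 without knockdown replicate 1. The second KPNA2 probe set behaved alike, with 1.74 and 1.83 in the control arrays and 6.23 and 1.87 in the knockdown arrays.

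KPNA4 was the bright member of this family and overlapped between groups. Its brightest probe set read 8.28 and 8.07 in the control arrays and 7.87 and 8.99 in the knockdown arrays, with the knockdown arrays on either side of the controls. The difference was 0.25 ± 0.52, and -0.46 after quantile normalization. Of the 22 importin alpha probe sets 15 were positive (background 48.3%), with a median of 0.24, and 0.09 without knockdown replicate 1.

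**Figure D2:**
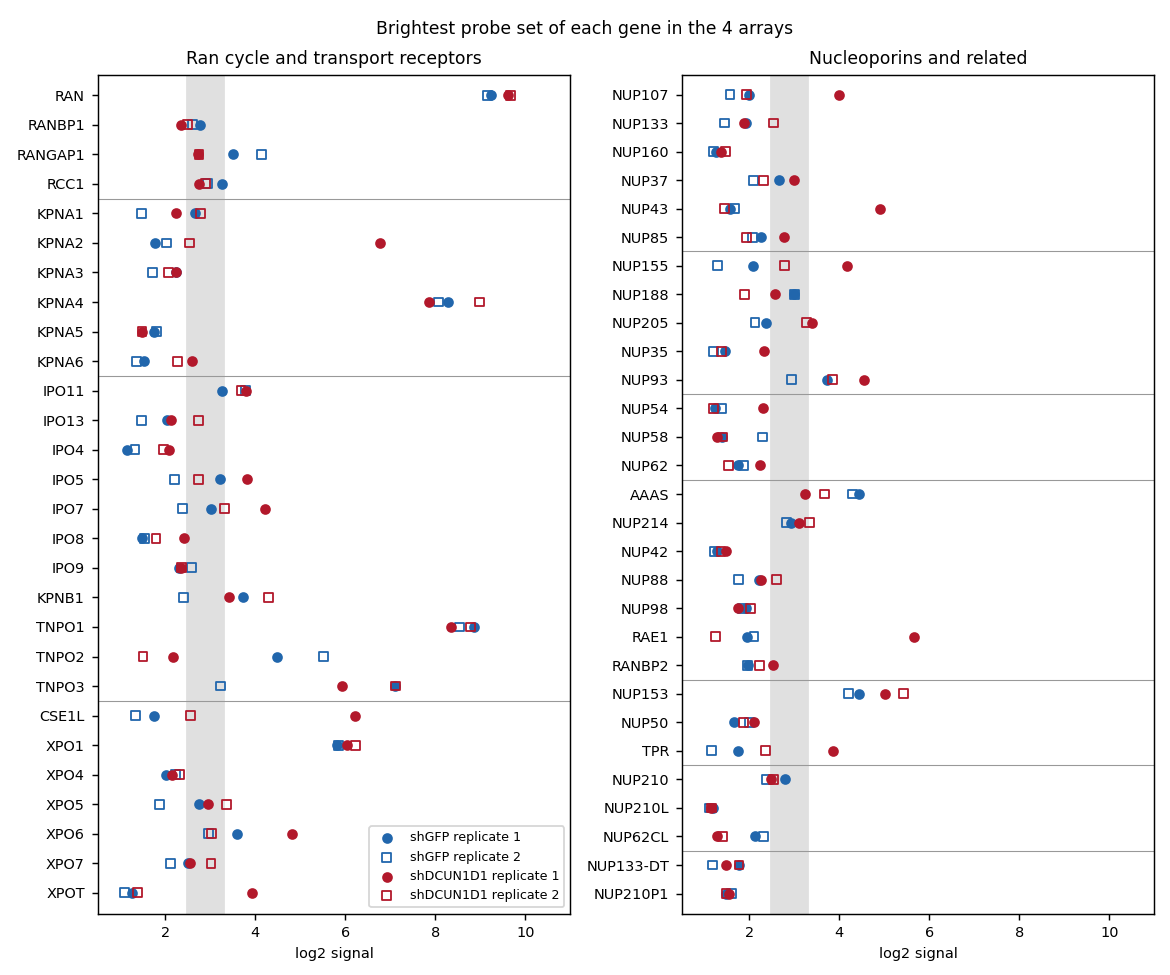
Log2 signal of the brightest probe set of each of the 57 genes in the 4 arrays, with control arrays in blue and knockdown arrays in red (filled circles, replicate 1, and open squares, replicate 2). The grey band spans the GC20 control (2.48 to 3.30), and 19 genes lie under the control of their own array in every array.

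The importin beta family, with 42 probe sets the largest role, held 4 higher and 1 lower call (background 1.18% and 2.38% of all probe sets). Its median over probe sets was 0.52, and 0.35 after quantile normalization and 0.12 without knockdown replicate 1. Over its 11 genes at their brightest probe sets, the median was 0.59. KPNB1, the receptor that carries the importin alpha complex through the pore, was positive at all 5 of its probe sets (0.13 to 2.39). One of them was past the bound, with 1.75 and 1.65 in the control arrays and 5.16 and 3.03 in the knockdown arrays. Both knockdown arrays stood clear of the controls, the first by more. This difference of 2.39 ± 0.75 was 1.33 without knockdown replicate 1. By the means it was 1.95-fold against the GC20 control. Knockdown replicate 2 (3.03) lay between that control's readings in the control arrays (2.97 and 3.30). The probe set may cross-hybridise, and the brightest KPNB1 probe set, of the same kind, overlapped between groups.

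IPO4, an importin of histones and ribosomal proteins, read 1.15 and 1.33 in the control arrays and 2.08 and 1.97 in the knockdown arrays. Its difference of 0.78 ± 0.16 was past the bound with small spread in both groups, although every array lay under the GC20 control. IPO7, which also imports ribosomal proteins, was positive at 4 of 4 probe sets (0.52 to 1.74) without a call. Without knockdown replicate 1 these differences ran from -0.17 to 0.62. With all arrays, 1 of the 4 fell just outside the bound with a lower limit of 1.15-fold. At the other edge, the NUP50 probe set described below lay just inside it at 1.21-fold. IPO5, IPO8, IPO9, IPO11 and IPO13 had no probe set past the bound.

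The closely related transportins TNPO1 and TNPO2, which import hnRNP and other RNA-binding proteins, gave opposite calls. The 250 bases before the most upstream listed start of both genes, and of CSE1L and NUP205, whose results follow, are shown so that the promoters of transcripts that were lower and higher past the bound can be read side by side. They are RefSeq sequences of GRCh38.p14, written 5′ to 3′ on the strand of the gene, with CCAAT or its reverse complement ATTGG, and the E-box CACGTG, in capitals. TNPO1 lies at chr5:72816411-72816660 (plus strand), TNPO2 at chr19:12723933-12724182 (minus), CSE1L at chr20:49046062-49046311 (plus) and NUP205 at chr7:135557667-135557916 (plus).
TNPO1: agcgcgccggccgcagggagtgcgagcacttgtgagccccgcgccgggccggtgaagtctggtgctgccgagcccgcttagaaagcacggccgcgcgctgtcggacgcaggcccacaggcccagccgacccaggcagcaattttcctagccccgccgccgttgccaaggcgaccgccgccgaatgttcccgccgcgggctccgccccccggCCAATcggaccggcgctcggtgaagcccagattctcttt
TNPO2: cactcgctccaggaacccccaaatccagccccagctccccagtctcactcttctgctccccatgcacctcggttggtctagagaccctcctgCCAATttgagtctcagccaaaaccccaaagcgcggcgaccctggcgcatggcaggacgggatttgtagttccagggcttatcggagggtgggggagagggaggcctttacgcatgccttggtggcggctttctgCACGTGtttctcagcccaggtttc
CSE1L: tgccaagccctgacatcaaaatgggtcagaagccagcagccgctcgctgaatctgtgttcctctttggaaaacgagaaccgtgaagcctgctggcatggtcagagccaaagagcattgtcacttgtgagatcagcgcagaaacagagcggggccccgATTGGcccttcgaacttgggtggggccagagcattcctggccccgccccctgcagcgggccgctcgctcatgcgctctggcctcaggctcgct
NUP205: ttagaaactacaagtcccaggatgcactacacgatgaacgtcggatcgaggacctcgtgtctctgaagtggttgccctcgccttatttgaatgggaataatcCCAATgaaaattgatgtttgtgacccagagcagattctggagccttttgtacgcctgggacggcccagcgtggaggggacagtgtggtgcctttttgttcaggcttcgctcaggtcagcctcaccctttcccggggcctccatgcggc
All 4 stretches hold CCAAT on 1 strand or the other, and only that of TNPO2 holds CACGTG. Among the 50 members with a listed promoter, 22 (44%) held CCAAT in this window, against 33% of all 27305 promoters and 34.5% of the 15842 of protein-coding genes. CACGTG stood in 7 (14%, against 6.46% and 7.8%) and the ETS core CCGGAAG in 12 (24%, against 8.78% and 11.7%), each searched on both strands. The members' promoters also had more G and C, with a median of 62.2% against 57.6%. None of these motifs contains another, and a match describes the sequence, not a bound factor.

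TNPO2 had the largest negative difference of the 160 probe sets. Its brightest probe set read 4.48 and 5.52 in the control arrays and 2.18 and 1.51 in the knockdown arrays. Both control arrays exceeded the GC20 control by over 1 log2 unit and both knockdown arrays were under it. The difference was -3.16 ± 0.56, and lay between -3.68 and -2.64 when any 1 array was left out. Against the GC20 control of the knockdown arrays it was at least 5.68-fold lower by the means. The GC20 control itself differed by -0.64 between the groups, and its part in this fold was not tested. The other 4 TNPO2 probe sets gave -0.44 to 0.51, none past the bound, so that the mean over the gene's probe sets was -0.67.

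TNPO1 was higher at 2 of its 10 probe sets. The first read 2.74 and 1.43 in the control arrays and 4.03 and 4.47 in the knockdown arrays, and the second 2.20 and 1.66 against 4.66 and 3.36. In both, each knockdown array was above each control array and above the GC20 control. The differences were 2.17 ± 0.56 and 2.08 ± 0.56, at least 2.17-fold and 1.84-fold against the control. The brightest TNPO1 probe set, however, read 8.85 and 8.54 in the control arrays and 8.36 and 8.79 in the knockdown arrays, an overlap with a difference of -0.12 ± 0.38. In between, 2 probe sets above the GC20 control in all arrays differed by 1.04 and 1.21 with no overlap of the groups but without a call. Of the 10 probe sets 6 were positive, and their mean difference was 0.87.

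TNPO3, the importin of splicing factors rich in serine and arginine, varied most between the control arrays. Its brightest probe set read 7.12 and 3.23 in the control arrays and 5.93 and 7.11 in the knockdown arrays. The second control array alone was low, and it set the difference of 1.35 ± 1.41, which was 3.29 without control replicate 1 and -0.60 without control replicate 2. That array was more than 1 log2 unit below each of the others at 6 of the 160 probe sets (3.75%, against 0.86% of all).

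**Figure D3:**
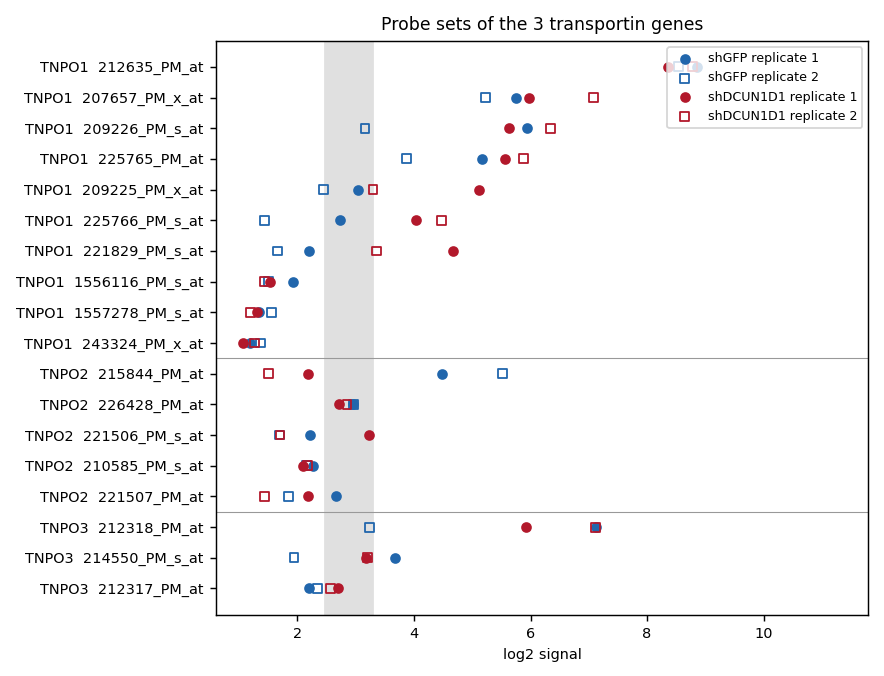
Log2 signal of every probe set of TNPO1, TNPO2 and TNPO3 in the 4 arrays, with control arrays in blue and knockdown arrays in red. The probe set of TNPO2 that was lower past the bound separates the groups (4.48 and 5.52 against 2.18 and 1.51), whereas the brightest TNPO1 probe set overlaps near 8.4 to 8.9.

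Of the exportins only CSE1L was called. CSE1L returns importin alpha to the cytoplasm after each import round, and read 1.74 and 1.34 in the control arrays and 6.21 and 2.57 in the knockdown arrays. Both knockdown arrays exceeded the controls, with a gap of over 3 log2 units between them. The difference was 2.85 ± 1.2, but 1.02 without knockdown replicate 1 and 4.67 without knockdown replicate 2. It did not pass the bound when either control array was left out. The means gave 2.39-fold against the GC20 control, but knockdown replicate 2 lay under that control's readings in both control arrays. All 4 CSE1L probe sets were positive, and 3 of them carried their highest value in knockdown replicate 1 by over 1 log2 unit.

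XPO1, the main exporter of proteins with a leucine-rich signal, read 5.83 and 5.84 in the control arrays and 6.04 and 6.23 in the knockdown arrays. The difference of 0.30 ± 0.59 was not past the bound, turned to -0.67 after quantile normalization, and its other probe sets gave -0.37 and -0.08. XPO6, the exporter of actin, read 3.59 and 2.96 in the control arrays and 4.82 and 3.03 in the knockdown arrays, and only knockdown replicate 1 was high. XPOT, the exporter of tRNA, showed the same shape with 1.27 and 1.09 against 3.93 and 1.38. XPO5, which exports miRNA precursors, differed by 0.84 at its brightest probe set with no overlap between groups and no call. Of the 18 exportin probe sets 15 were positive, against 48.3% of all probe sets. Their median was 0.25, and 0.20 without knockdown replicate 1.

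In the inner ring, 2 of 8 probe sets, those of NUP205 and NUP155, were higher past the bound (background 1.18% of all probe sets). Of the 8 differences 5 were positive (background 48.3%), with a median of 0.28. Without knockdown replicate 1, 4 of 8 were positive (background 50.7%) and the median was 0.01. NUP205, a large adaptor of the inner ring, read 2.36 and 2.13 in the control arrays and 3.40 and 3.28 in the knockdown arrays. The knockdown arrays lay together about 1 log2 unit over the controls, a difference of 1.09 ± 0.32 that fell short of the bound after quantile normalization. By the means it was 1.15-fold against the GC20 control, but knockdown replicate 2 (3.28) lay just under that control's reading in control replicate 2 (3.30). NUP155, which anchors the inner ring to the membrane, read 2.08 and 1.30 against 4.17 and 2.78. Its difference was 1.79 ± 0.57, and 1.09 without knockdown replicate 1. The means gave 1.27-fold against the GC20 control, but knockdown replicate 2 lay under that control's readings in both control arrays. NUP93, which holds the ring together, differed by 0.87 ± 0.56 with no overlap and no call, whereas NUP188, a paralogue of NUP205, was lower in both knockdown arrays, with a difference of -0.77 ± 0.35 and no call, and its other probe sets gave -0.08 and -0.09.

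In the Y complex, all 10 probe sets of NUP37, NUP43, NUP85, NUP107, NUP133 and NUP160 were positive (0.18 to 1.56, median 0.32), and none passed the bound. Of all probe sets 48.3% were positive. The largest differences belonged to NUP43, which read 1.58 and 1.67 in the control arrays and 4.91 and 1.45 in the knockdown arrays, and NUP107, with 1.99 and 1.57 against 3.99 and 1.94. In both only knockdown replicate 1 was high. NUP37 was close to its spread, at 0.28 ± 0.39. Without knockdown replicate 1, 6 of the 10 remained positive (background 50.7%), with a median of 0.11.

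The nuclear basket gave 1 call in each direction among its 13 probe sets (background 1.18% higher and 2.38% lower). TPR, the long coiled-coil protein that forms the basket's filaments, read 1.74 and 1.16 in the control arrays and 3.86 and 2.36 in the knockdown arrays. Its difference was 1.66 ± 0.56, and 0.91 without knockdown replicate 1, and only that array exceeded the GC20 control. The other TPR probe sets ranged from -0.16 to 0.98. NUP50, a basket protein that helps release import cargo, was lower past the bound at a single probe set prone to cross-hybridisation (1.62 and 2.10 against 1.23 and 1.12, -0.69 ± 0.20), while its other 4 probe sets gave 0.13 to 0.42. That call did not hold without control replicate 2 or without knockdown replicate 2, and all of its values were under the GC20 control. NUP153, which tethers the basket to the pore, was above that control in every array with 4.43 and 4.20 against 5.01 and 5.44. Both knockdown arrays were higher, by 0.91 ± 0.58, without passing the bound. Quantile normalization brought the difference to 0.22, and the other NUP153 probe sets gave -0.30 and -0.05.

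At the cytoplasmic face the only call was a lower one, at RAE1, an mRNA export factor that binds NUP98. That probe set read 2.37 and 2.23 in the control arrays and 1.37 and 1.03 in the knockdown arrays, a difference of -1.10 ± 0.20 entirely under the GC20 control. The brightest RAE1 probe set gave the opposite sign, with 1.94 and 2.11 against 5.65 and 1.26, since knockdown replicate 1 alone was high. Its difference was 1.43, and -0.76 without that array. AAAS, the ALADIN protein, read 4.45 and 4.30 against 3.25 and 3.67. It was below the controls in both knockdown arrays, at -0.91 ± 0.49, and did not pass the bound. NUP214, which helps release exported mRNA, was positive at 3 of 3 probe sets (0.35 to 0.43) with no overlap between groups and no call. RANBP2, the large cytoplasmic filament protein, was positive at 4 of 4 (0.19 to 0.42), 1 of them of the kind that may cross-hybridise and hence uncertain between RANBP2 and its RGPD copies.

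The central channel held no call. NUP62, NUP58 and NUP54, whose FG repeats fill the channel, held 10 probe sets with a median of 0.02 and no value above the GC20 control in any array. NUP62 differed by 0.08 ± 0.28 and NUP58 by -0.50 ± 0.32 at their brightest probe sets. Among the remaining nucleoporins, NUP210, a membrane glycoprotein of the pore, differed by -0.08 ± 0.30. NUP62CL, a gene related to NUP62, read 2.13 and 2.32 in the control arrays and 1.29 and 1.40 in the knockdown arrays. It was lower past the bound at this probe set (-0.88 ± 0.18), under the GC20 control in all arrays, and differed by -0.05 at its other one.

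Much of the positive shift was carried by a single array. Knockdown replicate 1 was more than 1 log2 unit above each other array at 27 of the 160 probe sets (16.9%, against 6.57% of all), from 18 genes that include KPNA2, KPNB1, CSE1L, IPO5, IPO7, NUP43, NUP107, XPOT and RAE1. No other array stood out in this way at more than 1 of the 160. Of the 13 called probe sets, 5 were among the 27, namely those of CSE1L, KPNB1, NUP155, TPR and 1 of TNPO1. With knockdown replicate 1 left out, all 13 were past the bound, but the spread then came from the control arrays alone, with the lone knockdown array assumed to vary like them, and higher calls over all probe sets went from 1.18% to 2.94%. The differences of CSE1L and KPNB1 were then 1.02 and 1.33 in place of 2.85 and 2.39. The others, among them KPNA6, IPO4, NUP205, the first TNPO1 probe set and the lower TNPO2, RAE1 and NUP62CL probe sets, had knockdown arrays within 1 log2 unit of each other. The part of knockdown replicate 1 in the members' shift beyond these values was not tested.

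**Figure D4:**
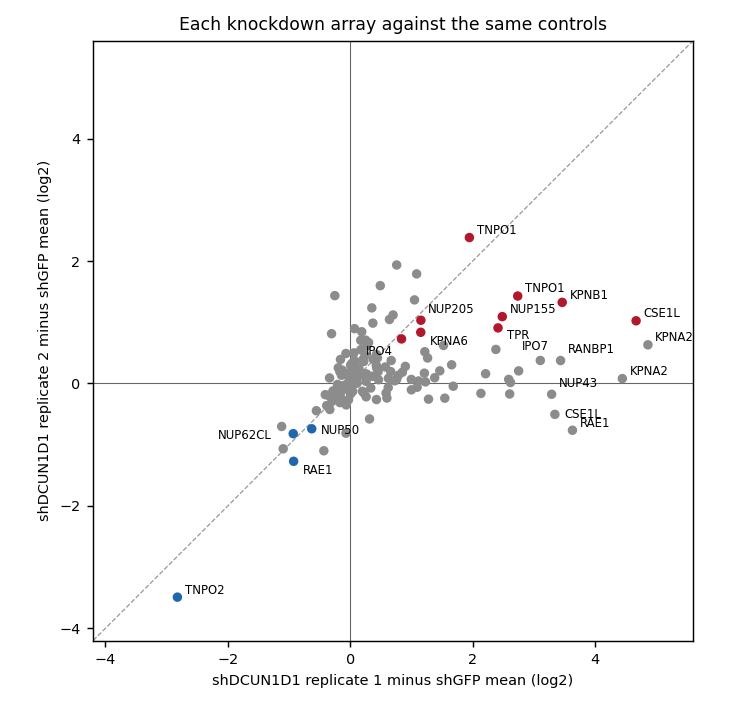
Difference of each knockdown array from the mean of the control arrays for the 160 probe sets, knockdown replicate 1 on the x axis and knockdown replicate 2 on the y axis, in log2 units. Points far to the right and near 0 on the y axis, such as those of KPNA2 and NUP43, were high in replicate 1 only, whereas the called TNPO2 probe set is low in both.

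Probe sets of 1 gene often differed in sign. Of the 42 member genes with several probe sets, 22 had both positive and negative differences (52.4%, against 60.7% of 10550 such genes). Of the 13 called probe sets, 2, both of TNPO1, had another of the same gene with the same call, and 7 had one of opposite sign. When a gene was read as the mean of its probe sets, 2 genes were higher past the bound (background 0.87%) and none lower (2.08%).

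**Figure D5:**
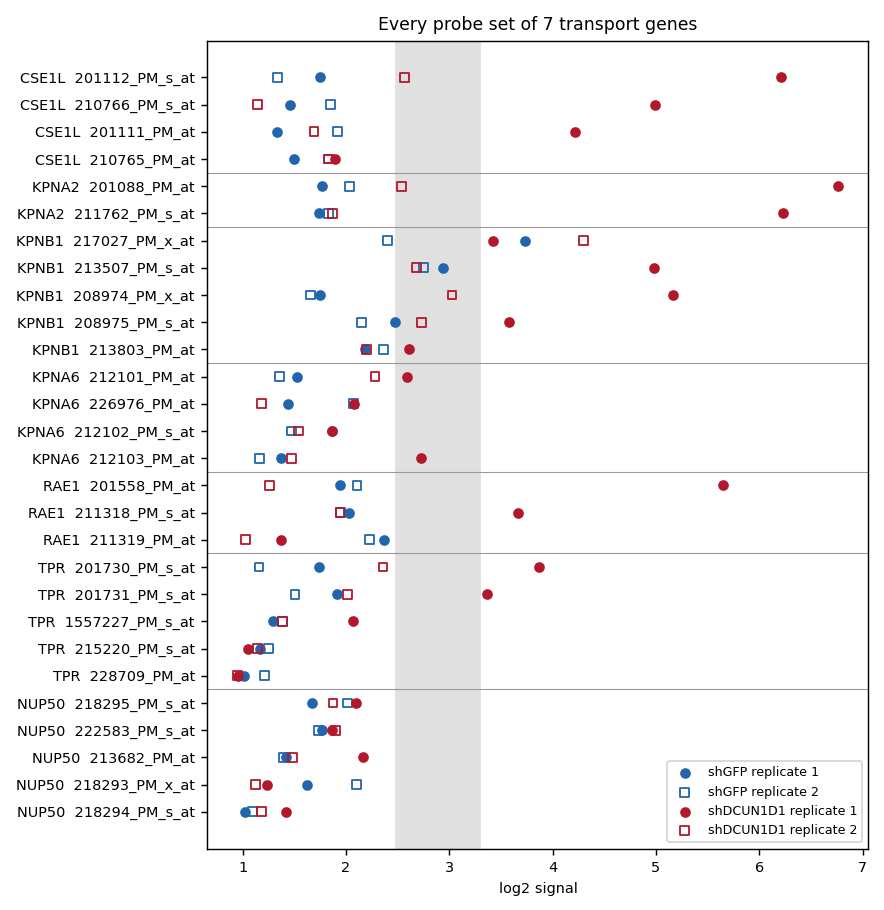
Log2 signal of every probe set of CSE1L, KPNA2, KPNB1, KPNA6, RAE1, TPR and NUP50 in the 4 arrays, with control arrays in blue and knockdown arrays in red. In CSE1L, KPNA2, KPNB1 and RAE1, knockdown replicate 1 (filled red) reaches 5.16 to 6.77 while the other arrays stay mostly under 3.

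Other pore and mRNA export genes, from a list of 38 of which 30 were measured, were also more often higher than lower in the knockdown arrays. At their brightest probe sets 2 of the 30 were higher and 1 lower past the bound (background 1.57% and 3.64% of genes). Of their 30 differences 20 were positive (background 48.5% of genes), and the median was 0.25 (all genes -0.01). Without knockdown replicate 1, 18 of the 30 were positive (background 51.1%) and the median was 0.08. That array was more than 1 log2 unit above each other array at 5 of the 30 (background 8.17% of genes). RANBP3, a cofactor of XPO1, was the lower one, with 4.13 and 4.79 in the control arrays and 2.33 and 2.52 in the knockdown arrays. The groups were well apart, at -2.03 ± 0.46, all 4 RANBP3 probe sets were negative and 3 were past the bound. PHAX, the adaptor that exports snRNA with XPO1, was higher (1.66 and 1.16 against 2.79 and 2.57, 1.27 ± 0.27), as was the mRNA export adaptor FYTTD1 (1.35 and 1.07 against 2.25 and 1.89, 0.86 ± 0.21). The PHAX probe set may cross-hybridise, and both of its knockdown readings lay under the GC20 control's readings in the control arrays (2.97 and 3.30). These FYTTD1 values lay under the GC20 control in every array. The second probe set gave 0.31 for PHAX and 0.10 for FYTTD1. SEC13, a further Y complex subunit, read 2.87 and 2.46 in the control arrays and 7.41 and 3.01 in the knockdown arrays, and so again was high in a single array.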

How the data were processed

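The deposited table holds log2 signal values, 1 per probe set and array, which the authors made from scanned images. Affymetrix Expression Console is named in the submitters' processing notes, whereas the methods name dChip, and the sources do not settle which made the values. The table holds no detection calls. Of 54715 probe sets, 102 controls, 864 naming several genes and 12835 naming none were left out. Members and gene lists were chosen with earlier results of these data known. The remaining 40914 probe sets were fitted with limma 3.58.1 in R 4.3.3 (variance trend, Benjamini-Hochberg adjustment). A gene was read at its brightest probe set, in a separate fit over 19774 genes. Named by rule were 30 genes: the Ran cycle, the best known receptors, genes with a called probe set whose groups did not overlap, and the 2 brightest of each role. Others were named after their values were seen. Alternatives were quantile normalization, median centring, leaving out the dim 50% of features, no variance trend, a replicate block, leaving out each array, the mean of probe sets, plain folds and the methods' t-test. The adjusted p rule and a filter above the GC20 control were added after seeing the data. The fit was tested on simulated data, in which the fold bound was passed about as often with no difference between the groups as in these arrays, so a call past it is a description and not a significant difference. Arrays have no read depth: their number and the signal over background limit the precision. Promoters came from RefSeq (GRCh38.p14).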

Additional observations from a re-analysis of the deposited data

How the results depend on the processing

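Of the 9 higher and 4 lower probe sets, quantile normalization kept 8 and 4, leaving out the dim 50% of features 7 and 3, no variance trend 8 and 3, and median centring all. With any 1 array left out, the probe sets past the bound numbered 1 to 42 higher and 3 to 6 lower, the genes 1 to 16 higher and 2 to 4 lower, and the other pore and mRNA export genes 0 to 7 higher and 1 lower, with no called probe set changing sign. Each of these fits holds a single array in 1 group, so the counts describe the arrays and are no test. The share of all probe sets called higher ran from 0.115% to 9.8% in them. The replicate numbers were not taken to pair the arrays, since deviations of same-numbered arrays correlated at -0.04 over all probe sets. With the replicate block 9 probe sets were higher and 3 lower, and the NUP50 call was lost. Among genes 6 were higher and 2 lower, and the RANGAP1 call was lost. The block changed no other call of a member. No member probe set, member gene or other pore and mRNA export gene passed limma's adjusted p or the adjusted t-test (0 in each direction), and over all features 1 probe set and 1 gene passed the latter. A plain fold of 1.5 gave 43 and 7 probe sets, 20 and 5 genes, and 12 and 3 other genes. Averaging all probe sets of a gene gave 2 and 0 genes, and 1 higher other gene. Other genes were 1 higher without the dim 50% and by the unadjusted t-test, and 2 lower with quantile normalization, no variance trend or the unadjusted t-test. The median difference was 0.44 for probe sets without the dim 50%, and for genes 0.21 after quantile normalization and 0.16 to 0.45 with 1 array left out. Signs turned after quantile normalization for KPNA4 (-0.46), RAN (-0.13) and XPO1 (-0.67), and with that average for NUP210 (0.016), NUP62 (-0.093), RANBP1 (0.56), RCC1 (0.12), TNPO1 (0.87) and XPO1 (-0.052). With 1 array left out, the difference at the brightest probe set ranged from -0.31 to 0.81 for KPNA4, -0.27 to 0.12 for NUP210, -0.066 to 0.62 for NUP37, -0.18 to 3.29 for NUP43, -0.026 to 0.32 for NUP50, -0.26 to 0.43 for NUP62, -0.76 to 3.63 for RAE1, -0.34 to 0.090 for TNPO1, -0.60 to 3.29 for TNPO3 and -0.24 to 1.54 for XPO6. Where the turns do not come from the array left out, the cause was not tested. Low signal over background limits every value under the GC20 control.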

Other observations

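A further 4 probe sets name a member together with another gene and were left out of the counts. The one shared by NUP62, IL4I1 and SIGLEC11 read 3.34 and 4.69 in the control arrays and 2.74 and 2.95 in the knockdown arrays, a log2 difference of -1.17, while the probe sets naming NUP62 alone lay under the GC20 control in every array. The others differed by 0.21 (NUP98 with PHF23), 0.13 (IPO11 with LRRC70) and 0.04 (RANBP2 with the RGPD genes).

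DDX39A, an RNA helicase of mRNA export outside the members, read 1.63 and 1.77 in the control arrays and 6.90 and 1.64 in the knockdown arrays. ENY2, a subunit of the TREX-2 mRNA export complex, was above the GC20 control in every array and read 9.14 and 9.17 against 8.33 and 8.46. Both knockdown arrays were lower there, by a log2 difference of -0.76 ± 0.33 that did not pass the fold bound.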
